A study of Arabidopsis thaliana with 12 samples.

Results

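The response of wild type Arabidopsis to 3 h of red light is described here by its 6 libraries, of 12 in the series, chosen by their labels. All are of wild type Col-0. Whole seedlings were stratified for 4 days at 4 °C on 0.9% agar with MS salts and no sucrose, given 3 h of white light to induce germination, and kept in the dark for 4 days. The seedlings of 3 libraries then stayed in darkness for 3 h more, and those of the other 3 libraries received 3 h of continuous red light at 7 µmol m-2 s-1. From each sample, 5 µg of total RNA, taken from 0.1 g of seedlings, was depleted of ribosomal RNA and made into a stranded library. The labels do not say whether replicates were separate cultures, so p-values measure only the spread between these libraries, which may be technical. Seedlings were taken whole, so that fewer cells of a type and less RNA per cell cannot be told apart.

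A seedling in darkness lives on its seed reserves, with a long hypocotyl, a closed hook and undeveloped plastids. Red light converts phytochrome to its active form, which moves to the nucleus, where phytochrome interacting factors (PIFs) are phosphorylated and degraded and the COP1 and SPA ubiquitin ligase is held back. The programme that follows, called de-etiolation, halts hypocotyl growth, opens the cotyledons and turns the plastid into a chloroplast. Phytochrome also acts on the splicing of transcripts, through splicing factors that bind it.

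Expression was given as group values in FPKM (fragments per kilobase of transcript, scaled to sequencing depth), with no value per library and so no error. Genes counted as called had a q below 0.05 together with a fold of 1.5 or more. Of 20635 genes tested, 3078 were called higher after red light (14.9%) and 1208 lower (5.85%), and the median log2 change of all tested genes was 0.01. Of the called genes, 706 rose and 108 fell by at least 4-fold, and 100 rose and 16 fell by at least 16-fold. The genes called higher held 5.33% of the summed FPKM in the dark and 18.1% after light, and those called lower went from 14.1% to 7.3%. Counts of reads per library were listed for splice junctions. Junction coverage, the spliced reads plus the mean of the reads at both intron boundaries at 1 intron or exon a gene, summed to between 401458 and 522928 per library over 919 genes. Among the genes with higher coverage after light, dark replicate 2 was the highest of its group in 175 of 275 genes, at 1.11 times the middle library in the median, and red light replicate 3 was the highest in 163. Root cell markers, a check on the mix of tissues, had 0 of 10 members higher and 2 lower. These were RHD2, an oxidase of root hairs, from 6.31 to 1.76 FPKM, and PIN2, an auxin exporter of roots, from 11.4 to 6.52 FPKM. The other 8 root markers were not called, and their summed FPKM was 100.8 in the dark and 92.4 after light with RHD2 and PIN2 included.

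The plastid's own gene expression machinery was higher after 3 h of light in most of its listed nuclear genes. In the list of plastid transcription, 17 of 20 members rose and 0 fell, with a median log2 change of 1.11. All 6 sigma factors, which guide the plastid's bacterial type RNA polymerase to its promoters, rose, led by SIGE (also SIG5) from 2.73 to 66.9 FPKM and SIGA (SIG1) from 11.4 to 58.0 FPKM. PTAC7, a protein of the transcribing plastid chromosome, went from 27.0 to 91.2 FPKM and SCA3, a phage type plastid polymerase, from 3.55 to 11.0 FPKM. With a fold of 2 required, 11 of the 20 were higher. In the list of plastid ribosomal proteins, 34 of 37 members rose and 0 fell (median log2 change 1.14), their summed level going from 2556 to 5430 FPKM. PSRP3/1, a protein found in plastid and not bacterial ribosomes, rose by a log2 change of 2.48, and the large subunit proteins RPL27 and EMB3136 (L10) by 1.78 and 1.77. The 3 not called were PSRP3/2 and the loci AT2G43030 (L3) and AT5G65220 (L29), whose log2 changes were all above 0. Cytosolic ribosomal proteins, with 0 of 28 called, had a median log2 change of 0.23, and 25 of the 28 values were above 0. Ribosome biogenesis had 1 of 26 members higher, AT3G05060, a NOP58 homologue, from 9.02 to 14.0 FPKM, and a median of 0.28.

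Import and folding of plastid proteins changed unevenly. Of 29 members 20 rose and 0 fell (median log2 change 1.02). The redox regulated Tic62 and TIC55-II of the inner envelope went from 2.64 to 26.3 FPKM and from 5.22 to 29.6 FPKM. CAO (CPSRP43), which carries light-harvesting proteins to the thylakoid, went from 11.0 to 70.4 FPKM, and the stromal chaperone gene cpHsc70-2 from 25.5 to 135 FPKM. Several parts of the translocon were not called, among them the receptor genes TOC33, TOC34, TOC120 and TOC132 with log2 changes of 0.40, -0.10, -0.08 and 0.14, and the thylakoid insertase ALB3 at 0.08. TOC159, the receptor for photosynthetic precursors, was called at 1.07.

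Genes for assembling, repairing and protecting the photosystems had 17 of 20 members higher and 0 lower, with a median log2 change of 1.84. NPQ4 (PsbS), which senses low lumen pH and sets off heat dissipation, rose from 58.5 to 899 FPKM. HCF173, needed for translation of the photosystem II protein D1, rose by a log2 change of 3.24, and its partner HCF244 by 2.46. PGR5-LIKE A and PGR5, of cyclic electron flow, rose by log2 changes of 2.75 and 2.47. FTSH1, VAR1, VAR2 and FTSH8, the thylakoid proteases that remove damaged D1, rose by between 1.80 and 2.46. TAP38, PGRL1B and LPA1 were not called, at log2 changes of 0.21, 0.22 and 0.53.

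The list of plastid redox and peroxide removal, which also holds the cytosolic peroxidase APX1 and the catalase CAT3, had 17 of 22 members higher and 0 lower (median log2 change 0.89), or 10 with a fold of 2 required. CDSP32, a thioredoxin of the stroma, rose from 1.13 to 71.5 FPKM, TRXF1, the thioredoxin that activates Calvin cycle enzymes, from 7.70 to 93.3 FPKM, and PRXQ, a peroxiredoxin, from 8.35 to 82.7 FPKM. NTRC, a thioredoxin reductase fused to a thioredoxin, rose from 11.8 to 50.6 FPKM. The summed level of the list was 4391 FPKM in the dark and 4307 after light, of which CAT3, a catalase that was not called, held 3184 and 2161 FPKM. Iron handling had 4 of 13 members higher and 0 lower. FRO7, the ferric reductase of the chloroplast, went from 0.419 to 7.12 FPKM, and the ferritins FER3 and FER4, which store iron in plastids, rose by log2 changes of 1.53 and 1.05, while FER1, the most abundant of the list, was not called (0.20).

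Some of the listed genes for lipid and isoprenoid synthesis rose. Of 26 genes for thylakoid lipids and plastid fatty acids, 12 rose and 1 fell (median log2 change 0.61). The plastid desaturases led, FAD8 from 1.97 to 36.9 FPKM and FAD5 from 16.1 to 186 FPKM, with the acyl carrier ACP4 from 76.9 to 594 FPKM. FADA (FAD4), a desaturase of phosphatidylglycerol, stood at 0.447 FPKM in the dark and 47.1 after light but did not pass q. MGDC (MGD3), a galactolipid synthase used under phosphate shortage, fell from 2.29 to 0.673 FPKM, while MGD1, the main synthase, rose by 0.93. The subunits of acetyl-CoA carboxylase CAC1, CAC2 and CAC3 and BCCP2 were not called, with log2 changes between -0.37 and 0.37. In the isoprenoid and tocopherol list 11 of 15 members rose and 1 fell (median 1.05). DXR, of the plastid isoprenoid pathway, rose from 18.7 to 60.3 FPKM, the geranylgeranyl reductase locus AT1G74470 from 196 to 598 FPKM, and VTE1, tocopherol cyclase, from 1.70 to 7.50 FPKM. PDS1, the dioxygenase that makes homogentisate from tyrosine breakdown, fell from 315 to 169 FPKM.

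Carbon fixation and its side path, photorespiration, rose together. Calvin cycle genes had 18 of 20 members higher, at a median log2 change of 2.66, and their share of all summed FPKM went from 0.252% to 1.32%. Photorespiration, the salvage of the product of Rubisco's oxygenation, had 17 of 18 tested members higher and 1 lower, at a median of 2.01. GLDP1, the P protein of glycine decarboxylase, rose from 13.6 to 351 FPKM. SHM1, its partner hydroxymethyltransferase of the mitochondrion, rose from 21.5 to 272 FPKM, and the peroxisomal enzymes GOX1 and GGT1 from 22.8 to 283 and from 67.5 to 554 FPKM. The list thus covered plastid, peroxisome and mitochondrion. The fall was in AT1G80380, the glycerate kinase that closes the cycle, from 471 to 295 FPKM. In starch and sucrose metabolism 11 of 21 rose and 0 fell (median 0.76). CT-BMY (BAM3), the plastid beta-amylase, went from 1.37 to 25.5 FPKM, GBSS1, the granule bound starch synthase, from 0.669 to 4.44 FPKM, and APL1, of ADP-glucose synthesis, from 13.7 to 67.4 FPKM. APE2, the triose phosphate exporter, rose from 60.8 to 287 FPKM. The sucrose exporters SWEET11, SWEET12 and SUC2 were not called, at log2 changes of 0.01, -0.30 and 0.02.

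Genes known to be raised by darkness and by lack of sugar fell. None of 24 members was higher and 16 were lower, the median log2 change was -0.98, and the summed FPKM went from 8953 to 3779. ASN1, asparagine synthetase, which stores nitrogen when carbon is short, fell from 849 to 174 FPKM. BCAT-2, an aminotransferase of branched-chain amino acids, fell from 344 to 74.6 FPKM, and SEN1, a senescence gene, from 1154 to 325 FPKM. The next steps of branched-chain amino acid breakdown fell as well, MCCA and MCCB by log2 changes of -1.43 and -1.38 and IVD by -0.95. Genes of reserve mobilisation were mostly not called. Of 18 genes of fatty acid breakdown and the glyoxylate cycle, 1 was higher and 1 lower, with a median of -0.21. ICL and MLS, the defining enzymes of that cycle, changed by log2 values of -0.35 and 0.04 and were not called. PCK1, the entry enzyme of gluconeogenesis, fell from 420 to 211 FPKM, and PMDH2, a malate dehydrogenase of the peroxisome, rose from 53.5 to 167 FPKM.

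Nitrogen and sulphur assimilation had 7 of 18 members higher and 1 lower (median log2 change 0.54). The reductases APR2, of sulphate, and NIA2 and NIR1, of nitrate and nitrite, rose from 5.04 to 23.8, from 76.2 to 269 and from 26.4 to 84.4 FPKM. SULTR2;1, a sulphate transporter, fell by a log2 change of -0.63. By q alone, 11 were higher. In the general phenylpropanoid and lignin list 13 of 17 rose and 0 fell (median 1.00). Here 4CL3, the CoA ligase of the flavonoid branch, had the highest log2 change (3.01), and PAL1 and PAL2, the entry enzymes, rose by 1.07 and 1.08.

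**Figure D1:**
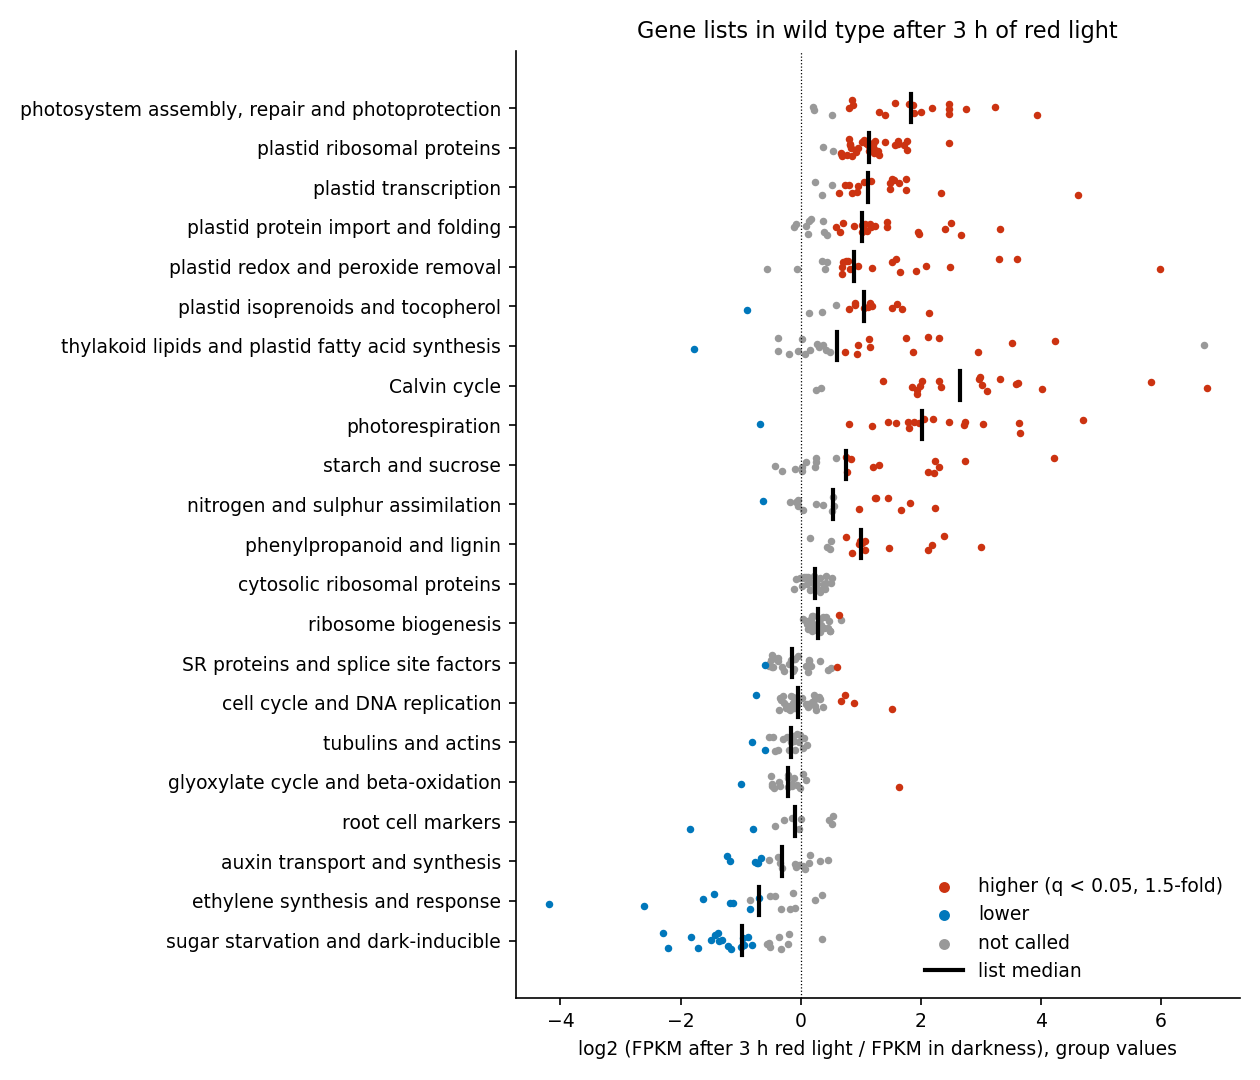
Log2 ratio of group FPKM after 3 h of red light to that in darkness for each tested member of 22 gene lists (horizontal axis, log2 units), with 1 point a gene coloured by its call and a black bar at the list median. Photosystem assembly (median 1.84), Calvin cycle (2.66) and photorespiration (2.01) lie to the right, sugar starvation (-0.98) and ethylene (-0.69) to the left, and cytosolic ribosomal proteins (0.23) near 0.

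Genes of ethylene and of auxin transport and synthesis fell or were not called. Ethylene synthesis and response had 0 of 17 members higher and 8 lower (median log2 change -0.69). The ACC synthases ACS8 and ACS5, which catalyse the first committed step, fell from 4.24 to 0.231 FPKM and from 22.7 to 3.72 FPKM. HLS1, needed for the apical hook, fell from 17.9 to 5.79 FPKM, and the receptors ERS2 and ERS1 fell from 16.2 to 5.92 and from 79.3 to 35 FPKM. Auxin transport and synthesis had 0 of 19 higher and 6 lower (median -0.31), or 2 with a fold of 2 required. The falls were in the synthesis genes YUC3, YUC8 and TAA1 (log2 changes -1.22, -0.73 and -0.76) and in WAG1, WAG2 and PID (-1.18, -0.66 and -0.70), kinases that act on auxin exporters. The exporters PIN3, PIN4 and PIN7 were not called, with values between 0.04 and 0.16. In cytokinin response and metabolism 3 of 18 rose (16.7%), or 5 by q alone, and 2 fell (11.1%). Over all tested genes 14.9% rose and 5.85% fell. ARR7 and ARR4, response regulators, rose from 4.62 to 12.3 and from 41.8 to 67.4 FPKM, and CKX5, an oxidase that breaks cytokinin down, fell from 16.6 to 4.54 FPKM.

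Of the cell cycle list, 4 of 33 members were higher (12.1%) and 1 lower (3.03%), with a median log2 change of -0.04. Over all tested genes 14.9% were higher and 5.85% lower, so these counts do not set the list apart. CYCD3;2 and CYCD3;1, D cyclins of entry into the cycle, rose from 24.8 to 71.1 and from 4.82 to 8.91 FPKM, and CYCD1;1 fell from 76.0 to 45.2 FPKM. With a fold of 2 required, CYCD3;2 was the 1 member higher. B type cyclins, which act at mitosis, were not called, at log2 changes between -0.35 and -0.12. Cellulose synthesis had 2 of 11 higher and 0 lower, CESA5 from 17.0 to 54.6 FPKM and CESA2 from 26.5 to 45.7 FPKM, with CESA1, CESA3 (CEV1) and CESA6, the other subunits of primary walls, at 0.15, 0.14 and 0.06 and not called. Cuticle and wax genes had 2 of 17 higher (11.8%), LACS2 and CER3. Tubulins and actins had 0 of 19 higher and 2 lower, TUB6 and TUB8 (-0.81 and -0.60). Aquaporins and proton pumps had 2 of 20 higher and 5 lower, the largest fall in PIP2;4, a water channel of the plasma membrane, from 399 to 208 FPKM, and 0 were lower with a fold of 2 required. Endoplasmic reticulum folding had 0 of 7 called.

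Regulators of light signalling moved in both directions. In the PIF family and related bHLH factors 5 of 17 rose and 10 fell, B-box factors had 9 of 16 higher and 4 lower, and all 5 HD-ZIP II factors were lower (median log2 change -1.56). Of COP1, SPA proteins and their targets 6 of 15 rose and 2 fell, the falls in FHY1 and FHL, which carry phytochrome A into the nucleus. Among 13 photoreceptor genes PHOT2 rose from 14.2 to 75.1 FPKM, and PHYA and PHOT1 fell from 344 to 168 and from 190 to 106 FPKM. SR proteins and splice site factors had 1 of 28 higher, SCL30A, and 1 lower, GRP7.

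The reads at splice junctions give values per library, and they were tested per gene with edgeR's quasi-likelihood test. Of 914 genes fitted, 275 were higher (30.1%) and 229 lower (25.1%) at an adjusted p under 0.05, and in 574 (62.8%) the 3 dark and the 3 red light libraries did not overlap. These genes are not a random draw, since they are genes with a listed splicing difference in some comparison of the series. Leaving out any 1 library left 250 of the higher and 153 of the lower genes past the threshold every time. Among the genes that rose furthest by p was CDSP32, with 19, 20 and 14 reads in the dark libraries and 822, 910 and 1030 after light. Its log2 change was 5.71 (DESeq2 SE 0.24) and its adjusted p 2.03e-09 in edgeR. KEA3, a potassium and proton antiporter of the thylakoid, had 39, 38 and 32 reads in the dark and 1048, 988 and 1259 after light (log2 change 4.93, edgeR adjusted p 2.64e-09). ELIP2 and ELIP1, early light-induced proteins that bind free chlorophyll, had at most 59 reads in any dark library and at least 2283 in any red light library. In CaS, a calcium binding protein of the thylakoid, 119, 121 and 77 reads stood against 1307, 1266 and 1607, a 13.4-fold rise. Every red light library lay above every dark library in each of these genes.

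The 6 falls with the smallest p follow. AT5G02540, a locus annotated as an NAD(P)-binding protein, had 586, 618 and 495 reads in the dark and 25, 32 and 28 after light, 19.6-fold lower (log2 change -4.30, edgeR adjusted p 1.2e-08). SNRK2.5, a kinase of the osmotic stress family, fell 11.7-fold, from 754, 812 and 590 reads to 64, 67 and 50. GRF7, a growth-regulating factor, fell 11.7-fold as well, from 304, 338 and 266 reads to 29, 24 and 23. IAA29, an auxin response repressor, went from 658, 491 and 586 reads to 47, 62 and 83, and AT1G05835, annotated as a PHD finger protein, from 785, 775 and 619 to 122, 149 and 172. FHY1 had 969, 939 and 813 reads in the dark and 219, 296 and 270 after light. None of these 6 genes had a red light library within the range of the dark ones.

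**Figure D2:**
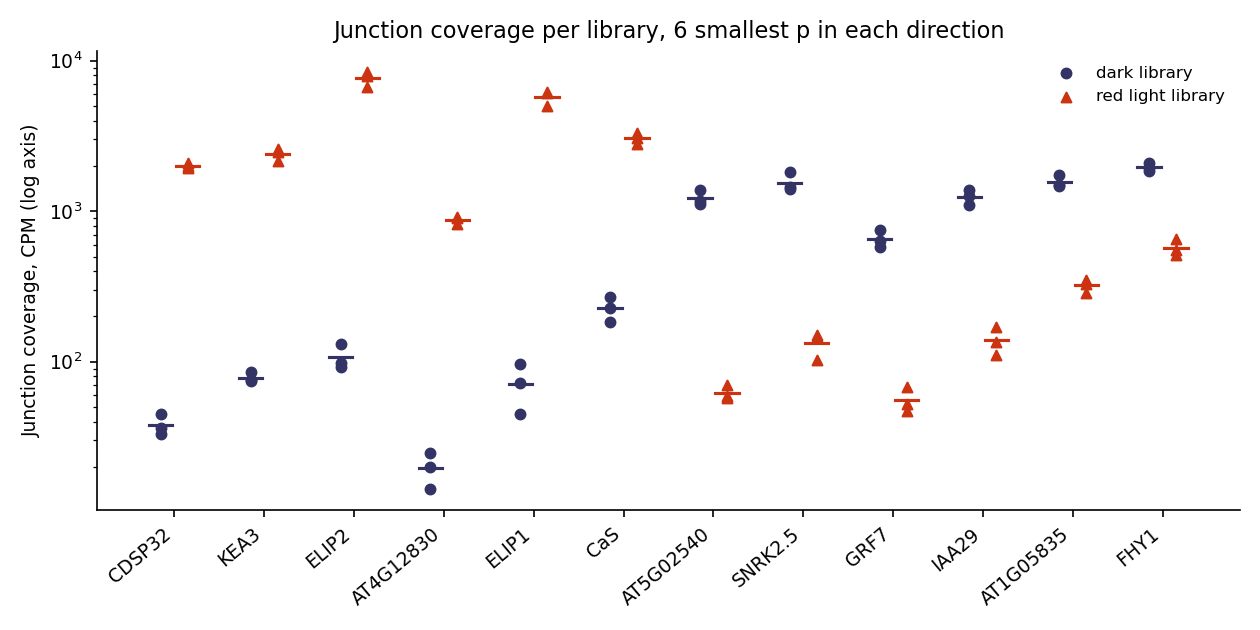
Junction coverage per library in CPM (vertical log axis) for the 6 genes with the smallest p in each direction. Counts were scaled to the library's summed coverage adjusted by its TMM factor. Dark libraries are circles, red light libraries triangles and group means bars. The red light libraries of CDSP32 to CaS lie above, and those of AT5G02540 to FHY1 below, all dark libraries of the same gene.

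The junction coverage gave the group FPKM a replicate check, although both come from the same libraries. Of 902 genes with both measures, 798 (88.5%) had the same direction. Of 263 genes called higher in FPKM, 262 had higher junction coverage and 240 of them passed edgeR's test. Of 66 called lower, 66 were lower and 64 passed, and 0 genes passed in the direction opposite to their call. Of 573 genes not called in FPKM, 31 were higher and 161 lower in junction coverage. The 2 calls are unlike, since edgeR's needed no minimum fold and the FPKM call needed 1.5. Over all genes with both measures, the log2 change in junction coverage lay lower than that in FPKM by a median of 0.10. The part of this shift in the larger number of falls was not tested, so these genes are not read as falls that FPKM missed. Within the lists, 59 genes had junction coverage, 30 higher and 16 lower. BCAT-2 fell from 1645, 2149 and 1902 reads to 227, 344 and 279 (edgeR adjusted p 7.34e-07), and SEN1 from 16380, 16311 and 15740 to 3295, 5537 and 3834. GGT1 rose from 667, 945 and 535 to 4880, 4919 and 6076 reads, with dark replicate 2 the highest of the dark libraries. In 2 list genes called higher in FPKM the libraries overlapped. STN8, a thylakoid kinase, had 51, 35 and 48 reads in the dark and 28, 39 and 26 after light (edgeR adjusted p 0.146), and APX1, a cytosolic peroxidase, had 211, 134 and 147 against 156, 207 and 222 (edgeR adjusted p 0.154).

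**Figure D3:**
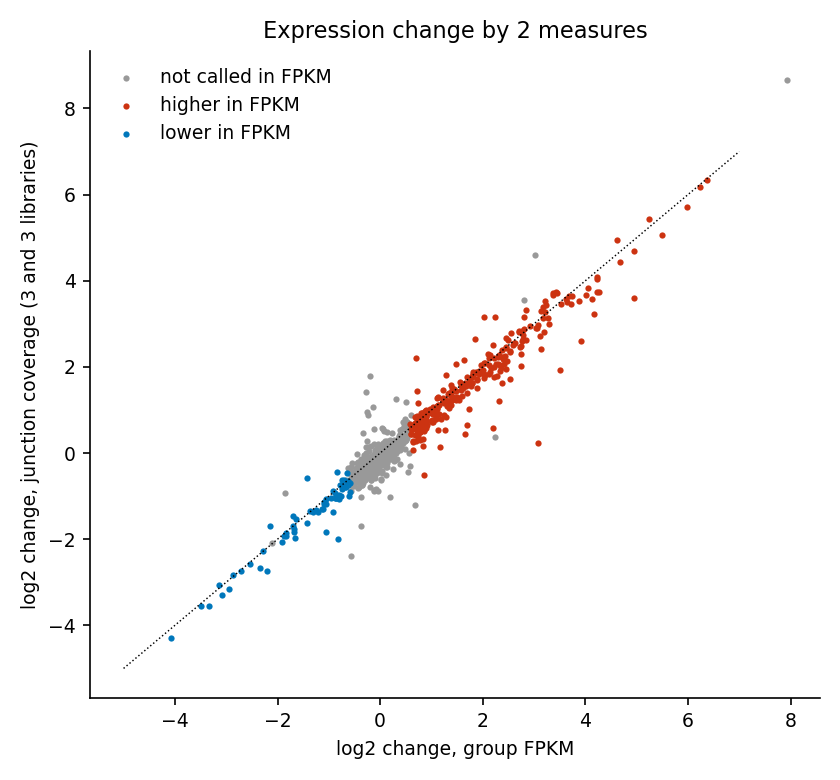
Log2 change in junction coverage from 3 and 3 libraries (vertical axis) against log2 change in group FPKM (horizontal axis), 1 point a gene coloured by its FPKM call, with a dotted line of equality. Of the 902 genes with both measures, 798 had the same sign.

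Splicing changed at 816 intron and exon bins of 610 genes, as listed by the authors at an FDR under 0.05 and a change of at least 3 points in the share of transcripts that include the bin. Of these, 797 were intron retention, 416 with a higher share after light and 381 with a lower one. Alternative 3′ and 5′ splice sites gave 8 and 4 events, skipped exons 5 and other exon bins 2. The events were chosen by the authors on this same contrast, so the values per library below describe their spread and are no further test. The groups did not overlap in 629 of 790 introns (79.6%), the median SD of the share was 2.25 points in the dark and 2.02 after light, and the median size of change was 6.55 points. In limma on the log2 odds 525 of the 816 (64.3%) passed at an adjusted p under 0.05, 266 higher and 259 lower, or between 167 and 241 and between 163 and 218 with 1 library left out, the fewest without red light replicate 1. At 10 points or more, 116 events were higher and 124 lower. In 63 introns a library held fewer than 10 reads.

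Introns that carry the largest changes, with others from the gene lists, are given as they stand in the gene (RefSeq sequence of TAIR10.1, whose nuclear chromosomes are those of TAIR10, strand in brackets). Capitals mark the GT and AG ends and the first stop codon that translation would meet in the frame of the upstream exon. CaS, COL2 and PIF7 lost retention in light, and MMH-1 and CKX6 gained it. The sequence of GGT1, whose transcript rose while retention of this intron rose too, is given beside them.
CaS chr5:7736995-7737073(-): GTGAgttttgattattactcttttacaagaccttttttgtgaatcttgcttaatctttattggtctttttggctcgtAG
COL2 chr3:487798-487940(-): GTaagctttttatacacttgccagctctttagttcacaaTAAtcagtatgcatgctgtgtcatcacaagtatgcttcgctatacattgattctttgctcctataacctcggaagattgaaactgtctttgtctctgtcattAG
PIF7 chr5:24638996-24639080(-): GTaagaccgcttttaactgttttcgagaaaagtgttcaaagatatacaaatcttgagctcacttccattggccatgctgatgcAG
MMH-1 chr1:19561528-19561686(+): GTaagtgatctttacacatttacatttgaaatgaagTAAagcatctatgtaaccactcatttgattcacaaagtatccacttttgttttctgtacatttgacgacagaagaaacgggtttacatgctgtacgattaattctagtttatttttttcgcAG
CKX6 chr3:23425862-23425943(+): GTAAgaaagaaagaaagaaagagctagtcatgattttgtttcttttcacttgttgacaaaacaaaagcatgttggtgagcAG
GGT1 chr1:8269421-8269503(-): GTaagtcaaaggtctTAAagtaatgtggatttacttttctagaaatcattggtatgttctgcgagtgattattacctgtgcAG
The CaS intron, the last of 5 and 79 bases long, opens on a stop codon that overlaps its GT, at base 2, as does the CKX6 intron. That of PIF7, 85 bases long and the last of 4, holds no in-frame stop, but its length is not a multiple of 3. Of 665 listed introns that lie in coding sequence, 597 (89.8%) bring in an in-frame stop when retained. The same share was not computed for introns that were not listed, so it is not read as a trait of the listed ones.

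In CaS, retention was 58.3%, 50.4% and 67.2% in the dark libraries and 6.4%, 5.7% and 6.6% after red light. The means were 58.6% ± 8.4 and 6.22% ± 0.452 (SD, n = 3 each), and each library held at least 119 reads at this intron. Its transcript as a whole rose from 6.21 to 119 FPKM. COL2, a CONSTANS-like B-box factor, went from 57.8%, 55.6% and 70.8% to 13.9%, 14.1% and 11.9%, in a transcript that rose from 3.06 to 46.1 FPKM. Its boundary reads were uneven, 89, 97 and 85 against 26, 8 and 12 in the dark. After light they were 104, 80 and 100 against 47, 42 and 42. PIF7, the shade regulator among the PIFs, went from 55.6%, 75% and 42.9% to 3.4%, 6.2% and 7.9%, with as few as 3.5 reads, counted as spliced reads plus the mean of the boundary reads, in a dark library. ASY3, a meiotic axis protein, went from 52.9%, 50.7% and 53.5% to 1.9%, 5.9% and 0.0% while its transcript was not called. AT3G08660, of the NPH3 family, AT4G26790, a GDSL lipase, and AT4G37560, annotated as a formamidase, fell by 54.4, 56.2 and 50.2 points. Their smallest libraries held only 9, 7.5 and 24 reads there, and the transcripts stood at 0.429, 0.314 and 0.312 FPKM in the dark. ATGLR1.2, a glutamate receptor gene, fell by 61.3 points by the authors' sums, but 1 dark library held 0 reads there.

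Retention rose most at AT2G34080, a cysteine proteinase locus, from 7.7%, 4.9% and 5.9% to 67.1%, 52.0% and 53.4%, in a transcript at 2.38 and 2.18 FPKM. MMH-1, a DNA glycosylase of base excision repair, went from 23.2%, 30.9% and 33.3% to 75.6%, 67.6% and 67.8% at its intron 6 of 7. ATSMC2, a condensin subunit, went from 1.6%, 2.7% and 0.0% to 35.6%, 18.1% and 53.0%, a wide spread among the red light libraries. CHLM, the methyltransferase of chlorophyll synthesis, went from 24.3%, 21.6% and 23.8% to 52.7%, 53.5% and 56.4% at an intron of its 3′ UTR, and its transcript rose from 74.3 to 188 FPKM. Cpn60beta4, a subunit of the plastid chaperonin, rose from 30.9%, 25% and 30% to 60.2%, 66.7% and 57.3%. AT5G19221, a noncoding RNA, rose from 42.1%, 52.0% and 48.6% to 79.7%, 95.2% and 83.9%, but it overlaps APL1, and the strand setting of the counting is not given in the sources used here, so reads of both genes cannot be told apart. In CKX6, a cytokinin oxidase, retention went from 18.5%, 22.2% and 19.2% to 50%, 34.1% and 56.9%. In none of these 7 introns did the dark and red light libraries overlap. After light, boundary reads were close in CKX6, at 26, 32 and 42 against 28, 25 and 45. They were uneven in MMH-1, at 20, 21 and 16 against 147, 154 and 169. AT2G34080 had 42, 20 and 36 against 7, 6 and 3, and CHLM 654, 762 and 969 against 169, 178 and 203. ATSMC2 and AT5G19221 were uneven as well. The share uses the mean of both boundaries, so at uneven introns it does not show whether the whole intron was kept.

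**Figure D4:**
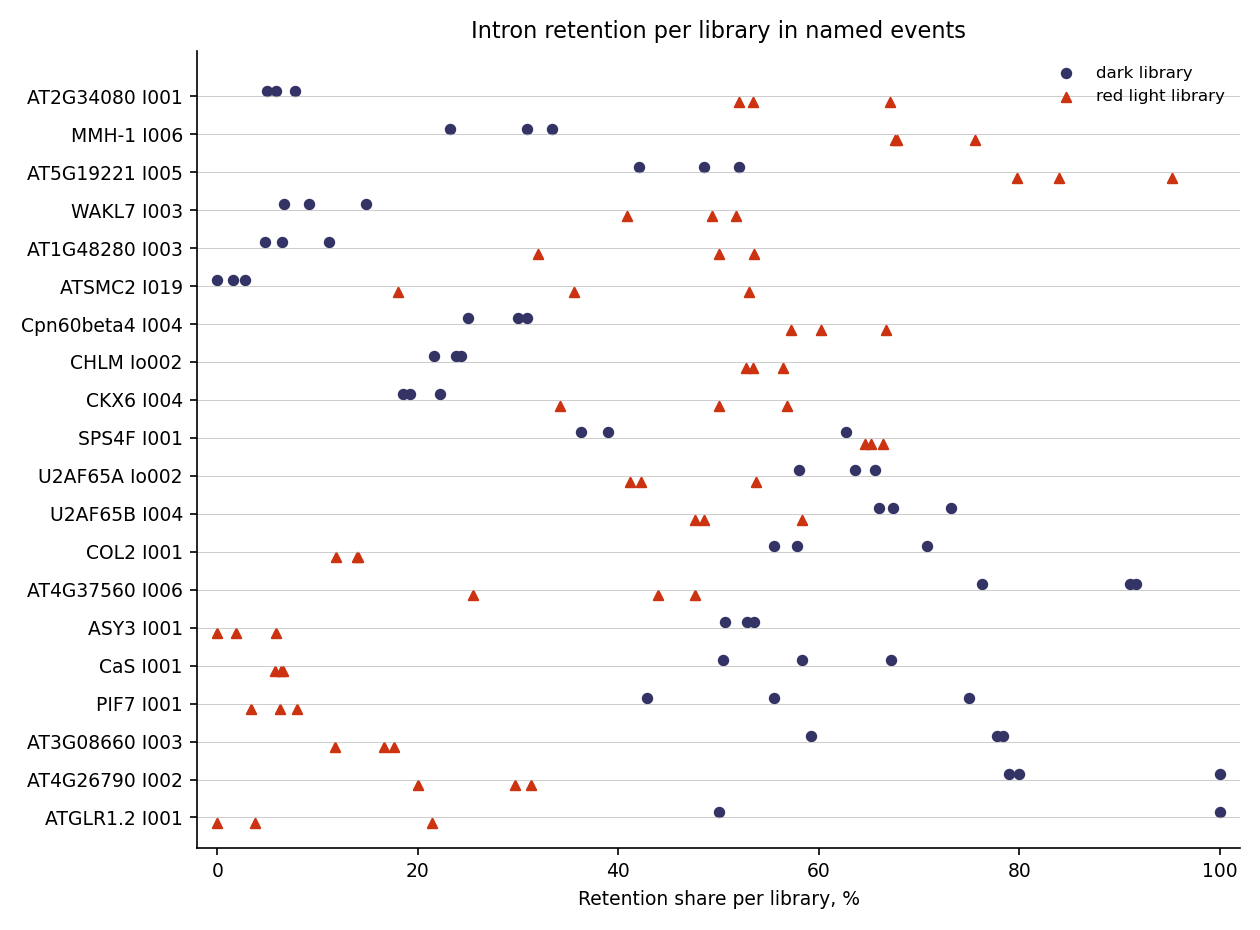
Retention share in percent of each library (horizontal axis) at 20 named introns, with dark libraries as circles and red light libraries as triangles. CaS lies between 50.4% and 67.2% in the dark and between 5.7% and 6.6% after light, and AT2G34080 between 4.9% and 7.7% and between 52.0% and 67.1%.

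Within the gene lists there were 63 events in 46 genes. All 9 events of SR proteins and splice site factors had a lower share after light. Of all 816 listed events, 426 were higher and 390 lower. SCL33 and RS2Z32 held more than a single event, and those of PTB2 and SR34a were exon bins, where a lower share means less inclusion. AT1G60900, a large subunit of the U2 auxiliary factor that binds the polypyrimidine tract, went from 67.4%, 73.2% and 66.0% to 48.6%, 47.6% and 58.3% retention of its intron 4, and its homologue ATU2AF65A from 58.1%, 63.6% and 65.6% to 42.2%, 53.8% and 41.2% at intron 11. In SCL33, an SR-like protein, retention went from 66.8%, 64.2% and 73.3% to 56.0%, 57.7% and 49.7%. Inclusion of an exon bin of PTB2, a polypyrimidine tract binding protein, went from 22.6%, 33.3% and 25.1% to 6.1%, 17.0% and 17.3%. The 6.1%, of red light replicate 1, averages 1 inclusion junction with 0 reads and another with 27, and the limma adjusted p of this event was 0.0491. Boundary reads were uneven in ATU2AF65A, at 376, 339 and 356 against 142, 157 and 125 in the dark. Photorespiration had 5 events, 4 higher. GGT1 rose from 2.5%, 1.4% and 2.8% to 7.1%, 7.6% and 7.7%, and GDCH, the H protein of glycine decarboxylase, from 2.1%, 2.6% and 1.0% to 6.0%, 6.7% and 5.4%. The plastid ribosomal protein genes RPL4 and RPL15 rose as well, RPL15 from 3.1%, 3.1% and 4.6% to 8.1%, 8.0% and 9.8%. In all of these the transcript rose too. Starch and sucrose genes had 15 events, 8 higher. APL1 held 5 of them, and only that of intron 8 was higher, from 14.0%, 9.7% and 19.2% to 24.5%, 23.1% and 27.4%. That of intron 6 fell from 10.3%, 12.3% and 11.8% to 3.3%, 4.8% and 4.7%. Since APL1 overlaps AT5G19221, the limit given above for reads of both genes holds for these values too. CT-BMY went from 20%, 24.3% and 16.4% to 4.8%, 4.5% and 6.9%, FAD8 from 22.4%, 8.0% and 26.7% to 3.3%, 4.1% and 3.2%, and NTRC from 21.2%, 22.2% and 27.6% to 9.5%, 9.1% and 9.1%. In these 3 genes the transcript rose while retention fell.

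Retention was also read against the change of the gene. In genes called higher in FPKM, 145 of 361 listed introns (40.2%) had a higher share after light, against 235 of 368 (63.9%) in genes not called and 26 of 57 (45.6%) in genes called lower. With at least 50 reads in every library, a minimum chosen after seeing the data, these shares were 35.4%, 61.2% and 72.7%, so that the value for genes called lower, left with 33 introns, moved by over 1.5 times. Several introns of a gene are not independent, and 109 of 134 genes with more than 1 event had all of them in one direction. Genes with an event were also more often called higher in expression, 41.5% of the 602 tested against 14.9% of all genes. Among genes at 10 FPKM or more in both groups the shares were 34.8% with an event and 10.2% without. No test was made of these differences between sets of genes. The depth of reads moves with expression, and its part in which events could be listed was not tested.

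**Figure D5:**
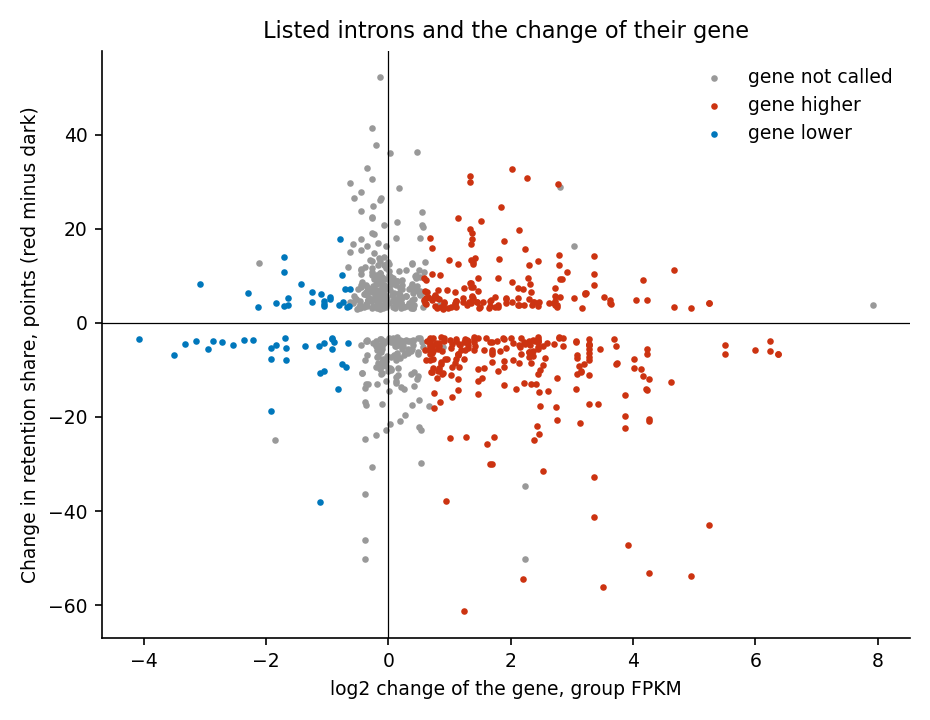
Change in retention share in points (vertical axis, red light minus dark) of each listed intron against the log2 change in group FPKM of its gene (horizontal axis), coloured by the call of the gene. The empty band around 0 on the vertical axis is the authors' minimum of 3 points, and the deepest losses, at more than 40 points, lie mostly at genes with higher FPKM.

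Features of the listed introns are given as a description, with no test. Introns with higher retention had a median length of 100 bases, and 35.3% were the first of their transcript. Those with lower retention had a median length of 139 bases, with 24.0% first. Of 61754 introns not listed, in genes at 10 FPKM or more in both groups, the median length was 104 bases and 19.6% were first. The median GC content was 33.3%, 32.9% and 33.2% in these 3 sets. The start GTAAG was present in 15.4%, 20.3% and 16.7%. In the 5′ UTR 56 of 83 listed introns had higher retention, in the 3′ UTR 19 of 30, and in coding sequence 325 of 665.

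Bins chosen for another contrast were read as well, but they do not stand for bins in general. They are 406 bins that the authors listed for the mutant against wild type both in darkness and in red light. That listing used the same 6 wild type libraries, and 20 of the bins were also listed for light. In all 406 bins the shares of the 6 wild type libraries were fitted with limma on the log2 odds. Of these, 5 passed at an adjusted p under 0.05 (1.23%), 4 higher and 1 lower, and 59 at an unadjusted p under 0.05. The groups did not overlap in 87 (21.4%), and the median size of change was 1.61 points. Retention of intron 1 of AT4G20362, a noncoding RNA, rose from 2.46%, 3.66% and 3.34% to 10.4%, 19.3% and 17.4% (limma adjusted p 0.0178). That of a CKX5 intron rose from 7.2%, 8.51% and 10.6% to 17.9%, 25.6% and 22.2% (limma adjusted p 0.0297), while its transcript fell. An intron of AT1G01320, a TPR protein locus with 8 events, all lower, fell from 17.2%, 24.0% and 21.2% to 9.97%, 10.9% and 9.93% (limma adjusted p 0.0367). The other 2 were an exon bin of AT4G04692 and an intron of AT2G04690, both higher. With 1 library left out, between 0 and 2 bins passed as higher and 0 as lower, so these calls rest on having all 6 libraries.

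Promoters were searched for 5 short motifs, as a description with no test. In the 250 bases before the annotated start, the letters CACATG on either strand occurred in 11.2% of all 19930 promoters, in 10.9% of those of genes called higher and in 20.1% of those called lower. CACGTG, the G-box bound by PIFs and HY5, occurred in 7.57% of all, 7.99% of the higher and 10.8% of the lower. GATAAG, the I-box, occurred in 12.4%, 13.7% and 15.2%, and AAAATATCT, the evening element, in 2.45%, 3.06% and 3.51%. AAACCCTA, the telo-box, was less frequent in called genes, with 3.45% of all, 2.63% of the higher and 1.88% of the lower. In the sugar starvation list 9 of 24 promoters (37.5%) held GATAAG. All 33 lists were searched, and other small lists had high values too. The G-box stood in 6 of 13 promoters of iron handling (46.2%) and in 3 of 7 of endoplasmic reticulum folding (42.9%). A match is only a run of letters. The promoters of ELIP1, 80.3-fold higher in junction coverage, and of ASN1, the gene with the largest fall of the starvation list, are shown as the 250 bases before the RefSeq start on TAIR10.1, with these motifs in capitals.
ELIP1 chr3:8085670-8085919(-): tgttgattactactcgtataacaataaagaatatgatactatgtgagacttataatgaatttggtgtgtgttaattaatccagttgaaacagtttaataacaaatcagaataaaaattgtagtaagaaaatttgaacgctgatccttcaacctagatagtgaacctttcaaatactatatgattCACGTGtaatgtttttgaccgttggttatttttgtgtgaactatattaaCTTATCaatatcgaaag
ASN1 chr3:17441432-17441681(-): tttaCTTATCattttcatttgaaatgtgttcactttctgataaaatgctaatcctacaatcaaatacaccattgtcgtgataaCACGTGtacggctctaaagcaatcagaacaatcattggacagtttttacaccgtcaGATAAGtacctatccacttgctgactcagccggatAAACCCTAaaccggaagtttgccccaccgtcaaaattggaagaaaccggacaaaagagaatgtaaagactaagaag
In ELIP1 the G-box begins at position -66 and an I-box, read on the other strand, at -17. In ASN1 a G-box begins at -167, I-boxes at -111 and -246 and a telo-box at -76.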

How the data were processed

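The authors' deposited expression table gives FPKM per group from 3 replicates together, with their p-value and q-value. In the authors' deposited table the lowest q, 0.000292, is shared by 3533 genes. Per the submitters' processing notes, FastQC, TopHat2 and Cufflinks were used with TAIR10, and per the series' design text ASpli counted splicing. Versions are not given in the sources used here. Log2 ratios were computed here. The deposited splicing sheets give read counts per library at each junction. The authors' deposited fraction columns give the share that includes the bin, and shares recomputed here matched within 0.1 points, except 3 skipped exons with 1 inclusion junction listed. Of the value columns, 0 had no sample. Members and gene lists were chosen with earlier results of these data known.

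Junction coverage was rounded, scaled by TMM, filtered on low counts and tested with edgeR 4.0.16 (quasi-likelihood), 3 dark against 3 red light libraries. Shares were fitted with limma 3.58.1 on log2 odds with 0.5 added to each read number. P-values are two-sided and adjusted by Benjamini-Hochberg over all features fitted, at 0.05. DESeq2 1.42.0 was an alternative and gave the SE. The scripts were tested on simulated data. The depth behind FPKM is unknown, and no interval was computed for it. Named genes were the largest changes per list, up to 4 in each direction, the 8 largest events in each direction, and the 6 smallest p in each direction for coverage. Events of list members past 6, and genes that were not called, were named after their values were seen. The labels give the groups, and names and sequences are from RefSeq. Some single genes of these lists are not reported here.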

Additional observations from a re-analysis of the deposited data

How the results depend on the processing

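The counts of called genes depended on the fold. Of the genes with higher and lower FPKM, q alone gave 4130 and 2728, of which 60.2% were higher against 71.8% at a fold of 1.5. A fold of 2 gave 1876 and 476. At least 1 FPKM, centring on the median gene, a pseudocount of 1 FPKM and the FPKM of the genotype tables gave between 2562 and 3047 higher and between 971 and 1228 lower. For junction coverage, edgeR without TMM gave 264 higher and 246 lower, DESeq2 275 and 222, no filter 275 and 230, and leaving out 1 library between 259 and 289 higher and between 169 and 233 lower. In the listed events, 266 higher and 259 lower passed limma, or 269 and 274 with 1 read added. Without 1 library these were between 167 and 241 higher and between 163 and 218 lower. A minimum change of 10 points left 116 higher and 124 lower events. In the bins listed for genotype, leaving out 1 library gave between 0 and 2 higher and 0 lower calls, and 20 reads or 1 added read gave 4 and 1. Values of named genes, events and lists were computed under 1577 alternatives. Of these, 1470 kept direction and call, 99 lost the call, 58 of them without 1 library, 0 reversed, and 8 were list counts or shares that moved by over 1.5 times. The named genes and events were mostly chosen as large changes in these same data, and the FPKM alternatives kept the authors' q. A reversal was therefore unlikely from the start, and the tally is no further test. With 3 libraries a group, no exact test over libraries could go below 0.1.

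The labels do not say whether dark and red light libraries of the same replicate number were made together. Deviations of same-numbered dark and red light libraries correlated at -0.01, -0.15 and -0.17 in junction coverage and at -0.09, -0.04 and 0.12 in log2 odds. Those of differently numbered libraries reached 0.15 in junction coverage and 0.21 in log2 odds, so these values show no pairing by number. With the replicate number as a block, junction coverage gave 268 higher and 188 lower, the listed events 215 and 214, and the bins listed for genotype 3 and 0.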

Other observations

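Of 29 tested miRNA genes, 3 were called higher and 5 lower in group FPKM, against 14.9% higher and 5.85% lower of all tested genes. With so few miRNA genes these counts are not read as a trait of the class. The libraries were of total RNA depleted of ribosomal RNA. The values are therefore read as those of precursor transcripts, and mature miRNA levels were not measured. MIR163, which targets methyltransferases, went from 1.04 to 26.1 FPKM, MIR167a from 19.3 to 36.8 and MIR156c from 101 to 166. MIR172a, which targets AP2-like flowering repressors, went from 1.81 to 0.320 FPKM, MIR167d from 27.2 to 10.3 and MIR822 from 128 to 71.6. MIR171b and MIR865, at 91.8 and 12.5 FPKM in the dark, were listed at 0 after light. A listed 0 gives no finite log2 change and may not be a measured level, so no size of fall is read from these calls. The mature sequences of 4 of these genes (RefSeq, TAIR10.1, seed of bases 2 to 8 in capitals) are shown because MIR167a and MIR167d, which target the auxin response factors ARF6 and ARF8, share the seed GAAGCUG and were called in opposite directions.
MIR163 chr1:24884359-24884382(+): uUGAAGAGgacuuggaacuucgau
MIR167a chr3:8108090-8108110(+): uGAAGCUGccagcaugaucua
MIR167d chr1:11137556-11137577(+): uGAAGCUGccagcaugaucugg
MIR172a chr2:11942918-11942938(-): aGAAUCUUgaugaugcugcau

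Genes grouped by the product name in RefSeq, a grouping chosen after the values were seen and not tested, differed in their calls. SAUR-like auxin-responsive proteins had 3 of 71 members higher and 33 lower. NPH3 family members, which act in phototropism, had 10 of 28 higher and 0 lower, and MATE transporters 18 of 43 higher and 4 lower. GDSL lipases had 18 of 46 higher and 1 lower, and receptors of the TIR-NBS-LRR class had 16 of 50 higher and 2 lower. Pentatricopeptide proteins, many of which process organelle RNA, had 27 of 177 higher and 2 lower under one product name and 8 of 33 higher and 0 lower under another, against 14.9% higher and 5.85% lower of all genes. Histones had 0 of 31 called. TIP2 (TIP1;2), a tonoplast aquaporin, was listed at 0 in the dark and at 8409 FPKM after light. It was marked as having too much data to test, so the listed 0 may not be a measured level and no change is read from it.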
